A study of Homo sapiens with 8 samples.

Results

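ESR1, PGR and 8 genes known as targets of the estrogen receptor (GREB1, TFF1, TFF3, PDZK1, CA12, NRIP1, CXCL12 and MYB) were followed across 2 HER2-positive breast cancer cell lines and 4 treatments. These 10 genes were taken by symbol from the 20531 genes that each deposited table listed, and all 10 were among the 14429 genes that reached a value of 10 in some library. The tables identify them by Entrez number as 2099 for ESR1, 5241 for PGR, 9687 for GREB1, 7031 for TFF1, 7033 for TFF3, 5174 for PDZK1, 771 for CA12, 8204 for NRIP1, 6387 for CXCL12 and 4602 for MYB. Polyadenylated RNA was sequenced from BT474m1, which the study gives as positive for both hormone receptors, and from SKBR-3, which it gives as negative for both. Cells were grown in RPMI with 10% serum and, per the labels, treated for 48 h with DMSO, 300 nM lapatinib, 300 nM JQ1 or the same doses of both drugs. Lapatinib inhibits the kinases EGFR and HER2, and JQ1 blocks the bromodomains with which BET proteins bind acetylated chromatin. Both lines are established ones, each of the 8 groups held 1 library, and the sources used here do not say whether both lines were sequenced together.

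The estrogen receptor, encoded by ESR1, is a transcription factor that binds DNA as a dimer once estrogen occupies it, and recruits coactivators to the genes it regulates. The gene for the progesterone receptor, PGR, is a classical target and is read in the clinic together with ESR1 as a sign of active estrogen signalling. In luminal breast cancer, HER2 and estrogen receptor signalling are known to influence each other.

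The promoters are shown first, because several of these genes rose with lapatinib and fell with JQ1 in BT474m1. RefSeq windows of 250 bases before the start (GRCh38.p14) were at hand for 7 of the 10 genes, with 17 starts, and none was at hand for GREB1, TFF1 and TFF3. The full palindromic estrogen response element GGTCANNNTGACC, searched on both strands, was found in 14 of the windows of 35116 starts (0.0399%) and in 0 of the 17. One arm of it, GGTCA, which the full element also contains, was found in 32.6% of all windows and in 8 of the 17, in CA12, CXCL12, ESR1, NRIP1, PDZK1 and PGR. The first letter of that match lay 166 bases before the start of PGR, 208 before that of CXCL12, 29 before that of ESR1, 196 before that of CA12 and 170 before that of NRIP1. For PGR and for PDZK1 the same site was counted in overlapping windows of different starts, so the 8 are not separate sites. The forkhead motif GTAAACA, of the kind that FOXA1 binds, was found in 2.98% of windows and, among these genes, in MYB 14 bases before the start, and its variant GTCAACA in 1.95% and in 0 of the 17. A match describes letters in a window and no binding was measured here.

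PGR and CXCL12 are shown because they were among the genes that rose most with lapatinib, and MYB for its forkhead match. Capitals mark GGTCA or its reverse complement in the first 2 sequences and the reverse complement of GTAAACA in MYB. The windows are chr11:101129078-101129327 on the minus strand for PGR, chr10:44385098-44385347 on the minus strand for CXCL12 and chr6:135181058-135181307 on the plus strand for MYB.
PGR: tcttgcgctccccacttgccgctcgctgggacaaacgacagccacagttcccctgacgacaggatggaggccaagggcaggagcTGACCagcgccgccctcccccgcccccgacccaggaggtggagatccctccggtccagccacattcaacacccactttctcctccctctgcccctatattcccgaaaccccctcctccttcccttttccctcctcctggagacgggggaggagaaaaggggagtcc
CXCL12: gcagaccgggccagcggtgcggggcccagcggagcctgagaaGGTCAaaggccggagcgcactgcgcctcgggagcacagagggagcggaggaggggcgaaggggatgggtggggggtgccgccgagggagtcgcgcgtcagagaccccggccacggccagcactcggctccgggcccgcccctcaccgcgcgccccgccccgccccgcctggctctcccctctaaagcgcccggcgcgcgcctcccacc
MYB: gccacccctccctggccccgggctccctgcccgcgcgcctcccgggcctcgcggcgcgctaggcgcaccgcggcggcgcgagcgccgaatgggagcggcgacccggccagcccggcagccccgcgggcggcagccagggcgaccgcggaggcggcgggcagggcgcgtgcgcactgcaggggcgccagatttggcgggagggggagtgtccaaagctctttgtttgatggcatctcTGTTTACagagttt

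Values are normalised read counts: estimated reads per gene, which the authors rescaled to give each library an upper quartile of about 1000 over its genes above 0. One read was worth 0.471 to 0.766 units, 21420113 to 34112376 reads fell on genes, and 3 reads, the limit that a count of 0 allows, corresponded to 1.41 to 2.30 units. Log2 fold changes were taken between log2(value + 1) values, and risen or fallen is said of a gene at 2-fold or more. Intervals are exact (Clopper-Pearson) at 95%, cover counting error only and leave out any variation between cultures. The departures from a sum of 2 changes, given further on, have intervals by a normal approximation instead. With 1 library per group no difference has a replicate check and no p-value is given. All 6 luminal epithelial markers listed (KRT8, KRT18, KRT19, EPCAM, CDH1 and ESRP1) reached 10 in at least 1 library of each line, but CDH1 was only 2.58 to 15.1 in SKBR-3, against 19413 to 24373 in BT474m1. Summed basal markers lay between 3.50 and 39.7 in the 8 libraries. Summed fibroblast markers were 341 to 1263 in BT474m1, where COL1A1 alone reached 10 and LUM was at 0, and 24.1 to 125 in SKBR-3. Summed leukocyte markers were 12.7 to 27.7 and 192 to 416 in the same lines, and those of endothelium reached at most 189 and 149. Some of these markers moved with the drugs in BT474m1, given here in the order DMSO, lapatinib, JQ1, both drugs. The luminal gene ESRP1 (6889, 4640, 4315 and 2970) was highest with DMSO, and changed by -1.21 on the log2 scale with both drugs. The other luminal markers stayed within 2-fold of DMSO there. The basal gene TP63 (38.2, 3.01, 5.31 and 1.75) and the endothelial genes VWF (153, 30.7, 11.1 and 5.25) and CDH5 (36.3, 0, 3.86 and 1.17) were highest in the DMSO library, and the macrophage gene CD68 (11.8, 27.7, 14.5 and 20.4) in the lapatinib library. In SKBR-3, in that order, KRT8 (59145, 56640.4, 211202 and 122390.2), KRT18 (27539, 27969.8, 97486 and 58479) and KRT19 (70270.6, 59040.8, 194265 and 110404) were highest with JQ1, CDH5 (126, 71.2, 20.0 and 16.5) with DMSO and CD68 (178, 407, 206 and 261) with lapatinib. The luminal genes EPCAM (4518, 4033, 4076 and 3300) and ESRP1 (809, 799, 551 and 664) were lower with JQ1 than with DMSO there. In the same line VWF (22.9, 24.5, 1.93 and 11.7) was lowest with JQ1. The fibroblast gene COL1A1 was lower in both JQ1 libraries of BT474m1 (1253, 1211, 394 and 337) and highest with DMSO in SKBR-3 (124, 35.2, 81.2 and 24.1). Their part in the results was not tested.

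The hormone receptor genes and 5 of the 8 targets separated the lines with DMSO. ESR1 had a value of 840.2 in BT474m1 and 4.29 in SKBR-3, the latter from 6 reads, a log2 difference of 7.31 (95% interval 6.49 to 9.06). PGR had 858 against 1.43, the latter from 2 reads, for a log2 difference of 8.46 (7.37 to 12.27). Both receptors were thus at or close to the detection floor in SKBR-3, the line classed as receptor-negative. GREB1, a cofactor that the estrogen receptor induces and binds, was 7.25 higher in BT474m1 on the log2 scale (6.64 to 8.26). The secreted mucosal peptides TFF1 and TFF3 were 5.70 (5.26 to 6.33) and 7.11 (6.69 to 7.70) higher. The chemokine CXCL12 had 0 reads in SKBR-3, which allows up to 3, and its BT474m1 value was 111 times that limit. The counting interval, which also covers the error of the BT474m1 count, started at 6.49 on the log2 scale. The transcription factor MYB was 1.53 higher (1.40 to 1.67).

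CA12, a carbonic anhydrase at the cell surface, went the other way, with 223 in BT474m1 and 1230 in SKBR-3 (log2 difference -2.45, -2.61 to -2.31). PDZK1, a scaffold for membrane transporters, was also lower in BT474m1 with DMSO (-2.14, -3.94 to -1.25), from 7 and 26 reads. NRIP1, a corepressor that the estrogen receptor both binds and induces, had 1622 and 1087, a log2 difference of 0.58 (0.49 to 0.67). In all, 7 of the 10 genes were at least 2-fold higher and 2 at least 2-fold lower in BT474m1, where 26.8% and 15.6% of all 14429 genes were. Line and sequencing cannot be told apart here, and in bulk RNA fewer expressing cells and less RNA per cell cannot be told apart either, in these and in all later comparisons.

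**Figure D1:**
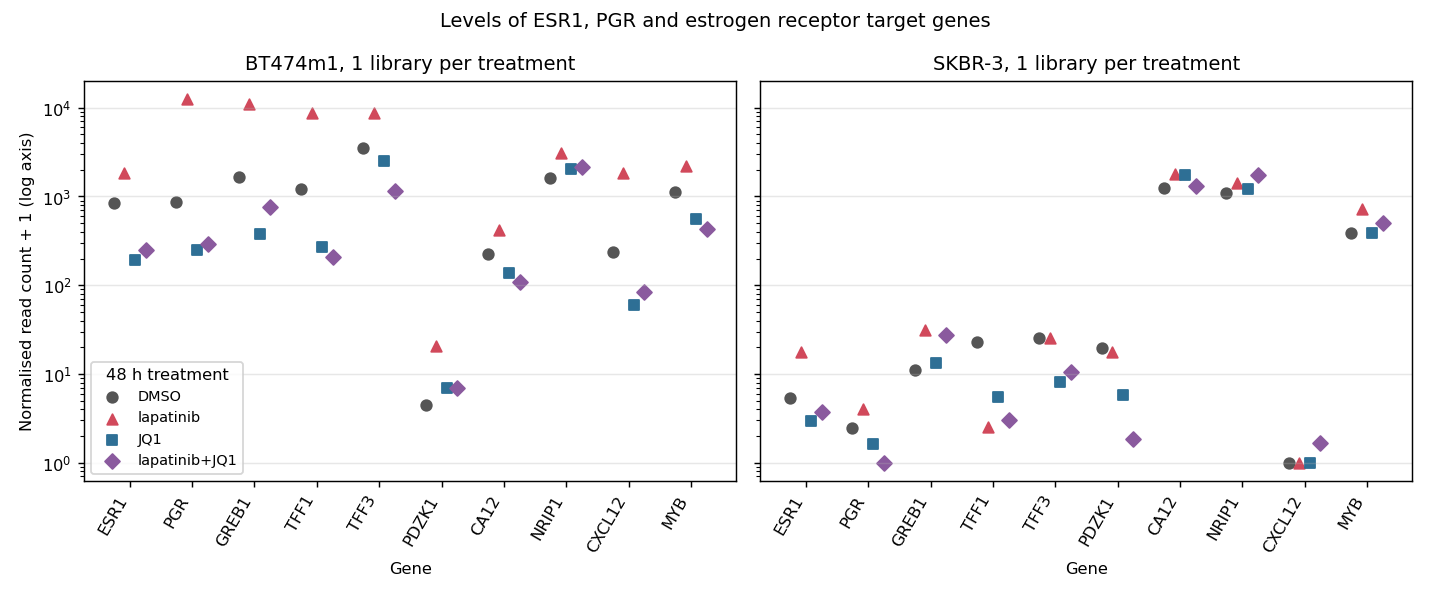
Normalised read count plus 1 (log axis) of the 10 genes in BT474m1 (left) and SKBR-3 (right), 1 point per library, coloured by 48 h treatment. In BT474m1 the lapatinib library is the highest of the 4 for every gene, while in SKBR-3 ESR1, PGR and CXCL12 lie at 16.8 or lower in all 4 libraries.

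ESR1 rose with lapatinib in BT474m1 and fell with JQ1, with or without lapatinib. Its values were 840.2 for DMSO, 1827 for lapatinib, 190 for JQ1 and 249 for both drugs. Lapatinib raised it 2.17-fold (log2 fold change 1.12, 1.04 to 1.21), and JQ1 lowered it to 4.43 times below DMSO (-2.14, -2.31 to -1.99). With both drugs it stood 7.34 times below lapatinib alone (-2.87, -3.02 to -2.73) and 1.31 times above JQ1 alone (log2 0.39, 0.19 to 0.59). The order of the 4 libraries was lapatinib, DMSO, both drugs, JQ1, and the interval of the difference between neighbours excluded 0 each time. In RefSeq, SYNE1 overlaps ESR1, and its values were 608 for DMSO, 770.5 for lapatinib, 112 for JQ1 and 36.2 for both drugs. It changed by 0.34 with lapatinib, -2.43 with JQ1 alone and -4.03 with the combination on the log2 scale, and whether reads of one were given to the other was not tested.

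PGR responded most to lapatinib of the 10 genes in BT474m1. In BT474m1 it read 858 for DMSO, 12466 for lapatinib, 251 for JQ1 and 290.3 for both drugs. The lapatinib library stood 14.5 times above DMSO (log2 fold change 3.86, 3.79 to 3.93), which put PGR at place 53 of 14429 genes ranked from the highest rise. Both libraries with JQ1 lay below DMSO, by -1.77 (-1.92 to -1.63) for JQ1 and -1.56 (-1.71 to -1.42) for both drugs. Between lapatinib alone and both drugs PGR fell 42.9-fold (-5.42, -5.56 to -5.30), place 12 from the deepest fall. PGR with both drugs differed from JQ1 alone by 0.21 on the log2 scale (0.03 to 0.39). PGR-AS1, which RefSeq places antisense to PGR, was not analysed here, and the labels name different library kits in different fields, so reads of PGR and of its antisense partner may not be told apart.

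GREB1 followed the same order in BT474m1, with 1676 for DMSO, 10943 for lapatinib, 380 for JQ1 and 758 for both drugs. It rose 6.53-fold with lapatinib (log2 2.71, 2.66 to 2.76) and fell 4.41-fold with JQ1 (-2.14, -2.26 to -2.03). With both drugs it was 14.4 times lower than with lapatinib alone (-3.85, -3.93 to -3.77). With both drugs its value was 758, against 380 with JQ1 alone, a log2 difference just under the 2-fold limit (0.87 to 1.13). Its paralog GREB1L was 51.4, 49.4, 66.2 and 52.5 in the same 4 libraries, without a 2-fold change.

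TFF1, a long-used readout of estrogen action, was 1207 for DMSO, 8799 for lapatinib, 271 for JQ1 and 206 for both drugs in BT474m1. The rise with lapatinib was 7.29-fold (log2 2.86, 2.80 to 2.93) and the fall from lapatinib to both drugs 42.6-fold (-5.41, -5.57 to -5.26), the place after PGR in the ranking. Its lowest library was the one with both drugs, 0.39 (0.20 to 0.59) below JQ1 alone on the log2 scale.

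TFF3, its relative, did not change 2-fold with JQ1 alone, with 3509, 8816, 2504 and 1153 in the order DMSO, lapatinib, JQ1, both drugs. JQ1 changed it by -0.49 (-0.54 to -0.44), whereas both drugs lowered it by -1.60 (-1.68 to -1.53) against DMSO. TFF3 was the 1 gene of the 10 to fall 2-fold between JQ1 alone and both drugs (-1.12, -1.19 to -1.04). The third trefoil gene, TFF2, was 2.36 for DMSO, 18.1 for lapatinib, 0.483 for JQ1 and 1.17 for both drugs. It rose by 2.51 with lapatinib on the log2 scale (1.56 to 4.66), on few reads.

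CXCL12, a chemokine that attracts cells bearing CXCR4, had values of 239 for DMSO, 1831 for lapatinib, 58.5 for JQ1 and 84.0 for both drugs in BT474m1. It rose 7.67-fold with lapatinib (log2 2.93, 2.80 to 3.08), fell 4.08-fold with JQ1 (-2.01, -2.33 to -1.74) and fell 21.8-fold from lapatinib to both drugs (-4.43, -4.70 to -4.20). CXCL12 is also known as a fibroblast product, and COL1A1, the 1 fibroblast marker that reached 10 here, had 1253, 1211, 394 and 337 in the same order. It thus was lower in both libraries with JQ1 and not higher with lapatinib, DCN, PDGFRB and LUM were under 10 throughout, and the part of other cells in the result was not tested. The receptor genes of CXCL12 moved apart with lapatinib. CXCR4 was 614 with DMSO and 276 with lapatinib (log2 -1.15), whereas ACKR3, the scavenging receptor, was 514 and 1519.9 (1.56, 1.46 to 1.67). With JQ1 alone neither receptor changed 2-fold, at 552 for CXCR4 and 402 for ACKR3.

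MYB, CA12 and NRIP1 stayed under 2-fold with lapatinib. MYB was 1133 for DMSO, 2186 for lapatinib, 561 for JQ1 and 426 for both drugs in BT474m1, so that lapatinib stopped short of 2-fold (log2 0.95, 0.87 to 1.02) and JQ1 just reached it (-1.01, -1.12 to -0.91, but -0.97 when scaled by the median of ratios). Both drugs lowered MYB 5.13-fold against lapatinib (-2.36, -2.47 to -2.24). Its relative MYBL2, a gene of proliferating cells, went from 1669 to 22.3 with lapatinib (-6.16, -6.73 to -5.76) and to 18.1 with both drugs, the opposite direction to MYB under lapatinib.

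CA12 in BT474m1 was 223 for DMSO, 420 for lapatinib, 135 for JQ1 and 107 for both drugs. It fell 3.91-fold from lapatinib to both drugs (-1.96, -2.21 to -1.73). NRIP1 and the barely detected PDZK1 were the genes that JQ1 did not bring below DMSO. NRIP1 stood at 1622, 3058, 2049 and 2171 in the order used above. None of its 5 treatment comparisons in BT474m1 reached 2-fold, the largest being 0.91 with lapatinib (0.85 to 0.98).

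PDZK1 was barely detected in BT474m1, at 3.51, 19.7, 6.03 and 6.03 from 7, 33, 12 and 10 reads. Its rise with lapatinib was 2.20 on the log2 scale (1.39 to 4.01), and 1.13 with a pseudocount of 10. The near-identical copy PDZK1P1 was at 7.33, 32.1, 13.8 and 58.1 in the same libraries, so that the ratio of copy to gene ran from 1.63 to 9.64. The values of PDZK1 are uncertain for that reason, since reads shared between such copies are divided by estimation.

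Counted over the 10 genes, lapatinib raised 7 at least 2-fold in BT474m1 and lowered 0, where 14.0% of all genes rose and 8.06% fell. JQ1 raised 0 and lowered 6 (4.81% and 11.8% of all genes), MYB being the 1 lost with the median of ratios. Both drugs against DMSO raised 0 and lowered 8 (14.2% and 15.3%). Both drugs against lapatinib raised 0 and lowered 9, with NRIP1 as the exception (5.20% and 12.5%). With a pseudocount of 10, CA12 was no longer 2-fold below DMSO (-0.99) nor PDZK1 below lapatinib (-0.89). Both drugs against JQ1 raised 0 and lowered 1 (12.4% and 7.27%). The median log2 fold change of the 10 genes was 1.76 for lapatinib, -1.39 for JQ1 and -1.45 for the combination, each against DMSO, and -2.90 for the combination against lapatinib, where the medians of all genes were 0.07, -0.06, 0.00 and -0.02. The 3 comparisons with DMSO share 1 DMSO library, and those with lapatinib alone share its library, so the counts are not separate evidence.

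**Figure D2:**
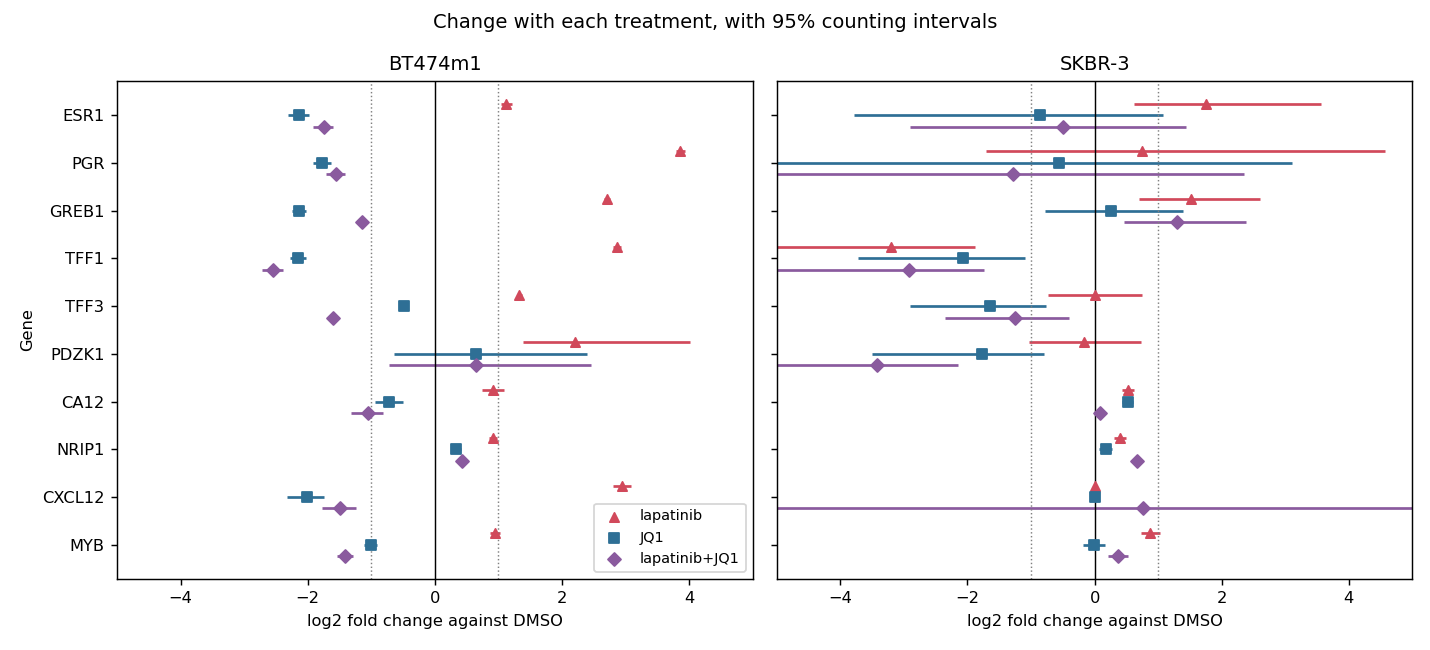
Log2 fold change against DMSO of each gene with lapatinib (triangles), JQ1 (squares) and both drugs (diamonds), with 95% counting intervals and dotted lines at 2-fold, intervals wider than the axis being cut at its edge. In BT474m1 lapatinib lies to the right of 0 for all 10 genes and both drugs lie to the left for 8, whereas in SKBR-3 the low genes have intervals several log2 units wide.

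The effect of both drugs was also set beside the sum of the single-drug changes in BT474m1, which is what independent effects on the log2 scale would give. For PGR the sum was 2.09 and the measured change -1.56, a departure of -3.65 (-3.84 to -3.46). TFF1 departed by -3.26 (-3.46 to -3.06), from a sum of 0.72 to a measured -2.54. For both genes, and also for GREB1, TFF3, CXCL12 and CA12, the sum was above 0 and the measured change below it.

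TFF3 departed by -2.45 (-2.53 to -2.36), CXCL12 by -2.42 (-2.79 to -2.05) and GREB1 by -1.71 (-1.85 to -1.57). The departure was smaller for MYB (-1.34, -1.50 to -1.19), CA12 (-1.24, -1.56 to -0.92), NRIP1 (-0.83, -0.92 to -0.74) and ESR1 (-0.73, -0.95 to -0.52). Every one of the 9 intervals that could be computed lay below 0, and for PDZK1 the DMSO library held too few reads for one. In SKBR-3, of the genes with substantial expression, CA12 departed by -0.97 (-1.09 to -0.84), MYB by -0.50 (-0.72 to -0.29) and NRIP1 by 0.09 (-0.04 to 0.22).

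**Figure D3:**
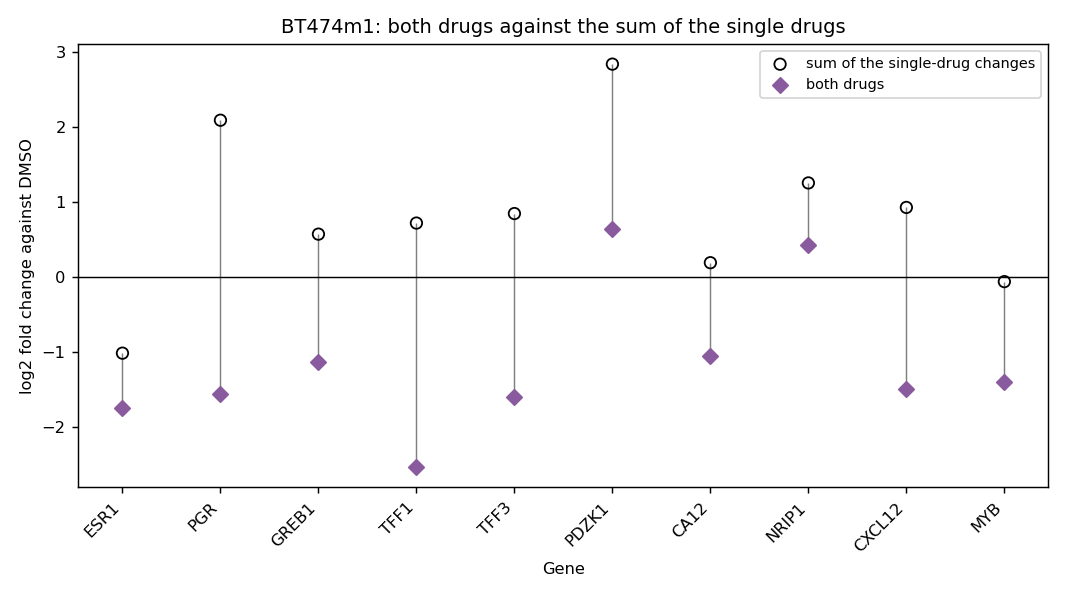
Log2 fold change against DMSO in BT474m1 measured with both drugs (diamonds) and the sum of the changes with each drug alone (open circles), joined by a line per gene. The diamond lies below the circle for all 10 genes, by a departure of -0.73 for ESR1 and of -3.65 for PGR.

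In SKBR-3 none of CA12, MYB and NRIP1 changed 2-fold in any comparison. CA12 was 1230 for DMSO, 1770.3 for lapatinib, 1764 for JQ1 and 1300.1 for both drugs. MYB was 391, 719.8, 388 and 504 in that order, with 0.88 (0.73 to 1.04) for lapatinib as its largest log2 change. NRIP1 was 1087, 1434, 1226 and 1727, the highest with both drugs (0.67, 0.58 to 0.76).

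The other genes had 40 reads or fewer in every SKBR-3 library. ESR1 was 4.29, 16.8, 1.93 and 2.75 from 6, 22, 3 and 4 reads, with lapatinib the highest of the 4 (log2 1.75, 0.63 to 3.56). GREB1 was 10.0, 30.6, 12.2 and 26.1 from 14, 40, 19 and 38 reads, and both libraries with lapatinib were higher (1.52, 0.70 to 2.60 for lapatinib, and 1.30, 0.47 to 2.38 for both drugs). TFF1 was 22.2, 1.53, 4.51 and 2.06, so that all 3 treated libraries lay below DMSO, the one with lapatinib by -3.20 (-6.97 to -1.88).

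TFF3 was 24.3, 24.5, 7.09 and 9.63, both libraries with JQ1 being the lower ones (-1.65, -2.91 to -0.76 for JQ1). PDZK1 was 18.9, 16.7, 4.83 and 0.853, from 26, 22, 7 and 1 reads. The copy PDZK1P1 was 6.20, 7.05, 4.84 and 10.2 there, so that with both drugs the copy was at its highest and the gene at its lowest, and the SKBR-3 values of PDZK1 are uncertain as well. PGR had 4 reads or fewer and CXCL12 1 read or none in every SKBR-3 library, and no change of either could be measured at this depth.

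The counts for SKBR-3 were accordingly small and mixed. Lapatinib raised 2 of the 10 (ESR1 and GREB1) and lowered 1 (TFF1), where 11.1% and 9.44% of all genes rose and fell. JQ1 raised 0 and lowered 3 (3.75% and 11.8%). Both drugs against DMSO raised 1 and lowered 4 (10.8% and 20.8%), against lapatinib 0 and 4 (3.22% and 16.2%), and against JQ1 1 and 1 (9.79% and 12.3%). PGR is among the lowered genes of both drugs against DMSO and against lapatinib on no more than 4 reads. With a pseudocount of 10 several of these calls ended. ESR1 was then no longer raised by lapatinib (0.91), PDZK1 no longer lowered by JQ1 (-0.96), and both drugs raised 0 and lowered 2 against DMSO, lowered 2 against lapatinib and changed 0 against JQ1. The median of the 10 genes was 0.46 with lapatinib and -0.29 with JQ1, against 0.05 and -0.08 over all genes.

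Other genes known to be induced by estrogen, 31 of 32 listed and measured, were counted in the same way in BT474m1. With lapatinib 11 rose and 3 fell, where 14.0% and 8.06% of all genes did, and with JQ1 0 rose and 9 fell (4.81% and 11.8% of all genes). With both drugs against DMSO 1 rose and 10 fell (14.2% and 15.3%), and between lapatinib and both drugs 0 rose and 18 fell (5.20% and 12.5%). The medians were 0.55, -0.59, -0.56 and -1.29. IGFBP4, which binds insulin-like growth factors, was 1880.2 for DMSO, 9404 for lapatinib, 686 for JQ1 and 512 for both drugs. It rose by 2.32 with lapatinib (2.27 to 2.37) and fell by 4.20 on the log2 scale from lapatinib to both drugs. HSPB8, a small heat shock protein, was 41.0, 399, 17.4 and 28.0.

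AGR3 and AGR2, neighbouring disulfide isomerases of the secretory pathway, parted. AGR3 went from 97.1 to 467 with lapatinib (2.26, 2.04 to 2.50) and was 3.86 with JQ1 and 4.08 with both drugs. AGR2 was 9799 for DMSO, 4649 for lapatinib, 5084 for JQ1 and 359 for both drugs, so that it fell by 1.08 on the log2 scale with lapatinib and fell by 4.77 with both drugs. In SKBR-3 the same 31 genes gave 6 risen and 5 fallen with lapatinib, a median of 0.07, beside 11.1% and 9.44% of all genes. With JQ1 1 rose and 4 fell, a median of -0.26, beside 3.75% and 11.8% of all genes. With both drugs against DMSO 4 rose and 10 fell there, beside 10.8% and 20.8% of all genes. With a pseudocount of 10 the fallen genes numbered 1 for lapatinib, 1 for JQ1 and 5 for the combination against DMSO.

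Genes that assist the receptor did not change 2-fold in BT474m1, where 4.81% to 14.2% of all genes rose and 7.27% to 15.3% fell, shares that are few genes in lists of 10 and 6. All 10 coactivators and corepressors listed, among them NCOA1, NCOA3, EP300 and CREBBP, stayed within 2-fold in all 5 comparisons, with medians from -0.53 to -0.02. The 6 chromatin factors did so too. FOXA1, which opens chromatin for the estrogen receptor, was 12907 for DMSO, 8957 for lapatinib, 13200.0 for JQ1 and 10157 for both drugs. GATA3 was 2412, 2419, 1938 and 1779. In SKBR-3, GATA3 rose by 1.20 on the log2 scale with both drugs against DMSO.

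**Figure D4:**
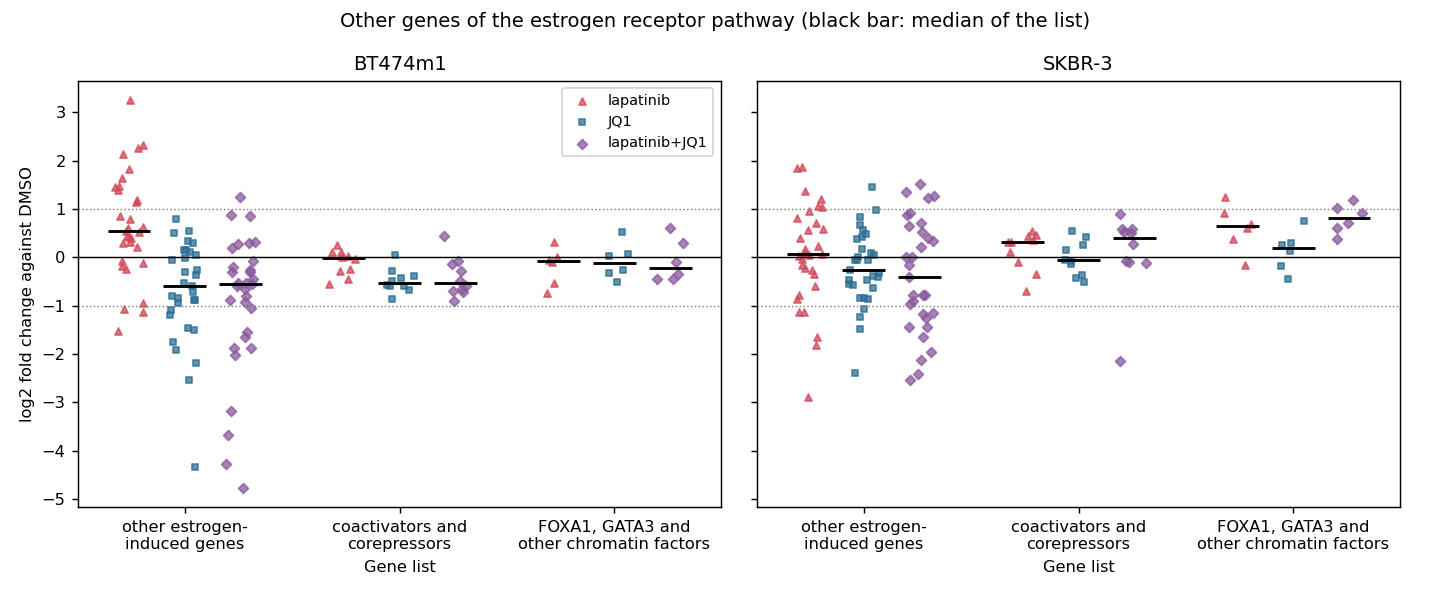
Log2 fold change against DMSO of each gene of 3 lists (31 other estrogen-induced genes, 10 coactivators and corepressors, 6 chromatin factors) in BT474m1 (left) and SKBR-3 (right), 1 point per gene and treatment, with the list median as a black bar and dotted lines at 2-fold. In BT474m1 the estrogen-induced genes spread from -4.77 to 3.25 while every coactivator, corepressor and chromatin factor lies within 2-fold.

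Genes for other estrogen receptors were read beside ESR1. ESR2, which encodes the beta receptor, was 5.19 for DMSO, 19.9 for lapatinib, 3.38 for JQ1 and 10.5 for both drugs in BT474m1. GPER1, a membrane receptor that responds to estrogen, was 147, 193, 148 and 85.1. With lapatinib alone ESR2 rose by 1.75 on the log2 scale (0.92 to 3.07), from few reads, and by less than 2-fold with a pseudocount of 10. GPER1 changed by 0.39 with lapatinib (0.17 to 0.62). In SKBR-3 GPER1 was 62.3, 55.9, 8.38 and 4.82 in the same order. It fell there by -2.75 with JQ1 (-3.86 to -2.05) and by -3.44 with both drugs (-5.05 to -2.59).

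Targets of the progesterone or the glucocorticoid receptor, 11 of 13 listed and measured, were read beside PGR. With lapatinib 5 rose and 1 fell in BT474m1 (median 0.86), where 14.0% and 8.06% of all genes did. With a pseudocount of 10 these counts were 3 and 0. In SKBR-3, where PGR had 4 reads or fewer, 4 rose and 1 fell with lapatinib (median 0.83), beside 11.1% and 9.44% of all genes. Between lapatinib and both drugs in BT474m1, 1 rose and 4 fell (median -0.22), beside 5.20% and 12.5% of all genes. With JQ1 in BT474m1 1 rose and 1 fell, where 4.81% and 11.8% of all genes did, and with a pseudocount of 10 the counts were 1 and 0. PER1, a clock gene, was 98.5, 198, 225 and 432 in the order DMSO, lapatinib, JQ1, both drugs. It thus was highest with both drugs (2.12, 1.91 to 2.36), where PGR was 2.96 times below DMSO.

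The profiles over the 4 BT474m1 libraries were compared as distances between log2(value + 1) values centred on their means, which describes 4 points only. PDZK1, which did not reach 100 in these libraries, was left out. Among the other 9 genes, CA12 and MYB were the nearest pair (0.35), followed by GREB1 and CXCL12 (0.44), and PGR was nearest to CXCL12 (0.78) and TFF1 (0.84). ESR1 and PGR lay 2.23 apart. Of 11220 genes that reached 100 in any of those libraries, NYNRIN (0.20), RIN1 (0.23) and C5orf38 (0.24) were nearest to ESR1, and LGR6 (0.72), KCNF1 (0.80) and UCA1 (1.11) nearest to PGR. With a pseudocount of 10 none of these 6 was again among the nearest 3, so that the neighbours depend on how low values are treated.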

How the data were processed

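Each deposited table gives 1 signal value a gene, which the authors made from read counts estimated with RSEM, scaled so that the upper quartile of genes above 0 in each library is about 1000. The submitters' processing notes name hg19, RSEM, SAMtools 1.2 and Picard 1.88, whereas the study's methods describe another assembly, aligner and counter and, for cell lines in general, a shorter treatment. One figure legend of the study gives the labelled time for SKBR-3, and the labels were followed. Groups came from the labels, with 1 library in each of 8 groups, so there was no replicate test within a line, and no model across the lines was fitted. The value of 1 read was taken as the common step between values in a library, and 83.6% to 84.6% of values above 0 and up to 1000 reads were whole numbers of reads (tolerance 0.02). Reads on genes ranged from 21420113 to 34112376.

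The software was scipy 1.17.1, pandas 2.3.3 and numpy 2.4.6 under Python 3.11.15, and matplotlib 3.10.9 for plots. Genes that reached 10 in some library were kept (14429 of 20531). Log2 fold changes used a pseudocount of 1, a 2-fold limit and 95% Clopper-Pearson intervals of recovered reads (normal approximation for departures from additivity). Fold changes and Clopper-Pearson intervals were tested on data simulated for lapatinib against DMSO in BT474m1, with counting error only. The intervals of the departures were not tested so. Lapatinib, JQ1 and both drugs were compared with DMSO, and both drugs with each single drug, within lines, and the lines with DMSO. The 10 genes and the gene lists were chosen with earlier results of these data known. Of the lists, a gene was named when it changed 4-fold in a BT474m1 comparison with a value of 100 or more, up to 4 a list, or was one of ESR2, GPER1, CXCR4, ACKR3, TFF2, FOXA1, GATA3, MYBL1 and MYBL2. The 3 nearest profiles to ESR1 and to PGR were named too. GREB1L, PDZK1P1, SYNE1, CA2, CA9, some coregulators and marker genes were named outside this rule. Values of some listed genes are not reported here. Alternatives were a pseudocount of 10, a minimum of 100, a 4-fold limit, other scalings and a limit on the interval.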

Additional observations from a re-analysis of the deposited data

Results flagged for a closer look

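Values past 2-fold on opposite sides in the 2 lines were found in 5 comparisons of 4 named genes. None of these differences was tested, since each group held 1 library. TFF1 changed by 2.86 in BT474m1 and -3.20 in SKBR-3 with lapatinib on the log2 scale, the SKBR-3 value resting on 31 and 2 reads. GREB1 changed by -1.14 and 1.30 with both drugs against DMSO, with 14 and 38 reads in SKBR-3, where the value was 0.85 with a pseudocount of 10. IGFBP4 changed by 2.32 and -2.90 with lapatinib, and by -4.20 and 1.25 for both drugs against lapatinib, with SKBR-3 values of 6.44 with DMSO, 0 with lapatinib and 1.38 with both drugs. These SKBR-3 changes are set by the pseudocount and are not bounds, and the counting interval of the last one reached down to -2.57, so that no opposite change is shown for it. HSPB8 changed by 3.25 and -1.13 with lapatinib, from 51.5 to 23.0 in SKBR-3, which was -0.90 with a pseudocount of 10. With that pseudocount TFF1 (-1.48 in SKBR-3) alone of the 4 genes stayed past 2-fold on opposite sides.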

How the results depend on the processing

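No pairing of replicates was possible because each group held 1 library and the titles carry no replicate numbers. For the same reason no library could be left out. The 2 lines share the same 4 treatments, but no model that pairs them across the lines was fitted. Of the member counts under the alternatives, 94 stayed within 1.5 times the value given and 16 moved. With a 4-fold limit, genes lowered in BT474m1 were 1 with both drugs against DMSO and 0 against JQ1. In SKBR-3 that limit left 0 raised with lapatinib, 1 lowered with JQ1, 0 raised and 2 lowered with both drugs against DMSO, and 0 raised and 0 lowered with both drugs against JQ1. With a pseudocount of 10, SKBR-3 had 1 raised with lapatinib, 0 raised and 2 lowered with both drugs against DMSO, 2 lowered against lapatinib and 0 raised and 0 lowered against JQ1. With totals made equal, GREB1 made 1 raised in BT474m1 with both drugs against JQ1. Requiring an interval that excludes no change left 0 lowered in SKBR-3 with both drugs against JQ1. Of 110 log2 fold changes of the 10 genes, 3 changed sign with equal totals, 2 with a median of ratios and 0 with a pseudocount of 10, the sizes of those 5 rounding to 0.08 or less in either case. Of the changes past 2-fold, 19 shrank by over 1.5 times with a pseudocount of 10, and none moved so far with the other scalings. Among them, lapatinib in SKBR-3 went from 1.75 to 0.91 for ESR1 and from -3.20 to -1.48 for TFF1, JQ1 in SKBR-3 from -1.65 to -1.01 for TFF3, both drugs against DMSO in SKBR-3 from 1.30 to 0.85 for GREB1, and the difference between lines from -2.14 to -1.09 for PDZK1. Scaling by the median of ratios moved the median of all genes by 0.14 and 0.16 in SKBR-3 for both drugs against DMSO and lapatinib and by -0.15 between lines, and equal totals by -0.15 for JQ1 in SKBR-3. The BT474m1 comparisons were moved by 0.06 or less. Depth limits ESR1, PGR, GREB1, TFF1, TFF3, PDZK1 and CXCL12 in SKBR-3, at 40 reads or fewer per library. The progesterone or glucocorticoid receptor targets raised with lapatinib in BT474m1 were 3 with the median of ratios. With a pseudocount of 10 the share of all genes raised fell from 4.81% to 3.06% for JQ1 and from 5.20% to 3.20% for both drugs against lapatinib in BT474m1. In SKBR-3 it fell from 11.1% to 7.12% for lapatinib, from 3.75% to 2.16% for JQ1, and for both drugs from 3.22% to 1.66% against lapatinib and from 9.79% to 5.92% against JQ1. The share lowered there fell from 11.8% to 6.47% for JQ1 and from 16.2% to 10.5% for both drugs against lapatinib. A minimum of 100 took the share raised by both drugs against JQ1 in BT474m1 from 12.4% to 8.11%.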

Other observations

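Relatives of the 10 genes other than those described above gave further values in BT474m1. CA2, a cytosolic carbonic anhydrase, was 28.8 for DMSO, 48.8 for lapatinib, 18.8 for JQ1 and 33.8 for both drugs, whereas CA9 was at 0.943 or lower in every BT474m1 library. MYBL1 was 255, 178, 239.6 and 86.9 in the same order. Of the 8 relatives and partners measured, 3 rose and 2 fell with lapatinib in BT474m1, where 14.0% and 8.06% of all genes did, and 1 rose and 3 fell in SKBR-3, where 11.1% and 9.44% did. The 3 that rose in BT474m1 were ESR2, TFF2 and ACKR3, and with a minimum value of 100 ACKR3 alone was left. With a pseudocount of 10, 2 of them stayed past 2-fold.

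SYNE1, which overlaps ESR1 in RefSeq, was 7.16, 18.4, 0.644 and 3.44 in SKBR-3 in the order DMSO, lapatinib, JQ1, both drugs.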
